A study of Mus musculus with 9 samples.

Results

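The genes described here are 44 genes of the machinery that docks and fuses secretory vesicles: the SNARE proteins, the synaptotagmins, the regulators of SNARE assembly, the Rab3 and Rab27 GTPases, and the proteins of the synaptic vesicle membrane. They were chosen by name, with earlier results of these data known. The rows of the expression table whose Ensembl identifiers carry these gene symbols were taken. All 44 had a row among 49672 in all. A SNARE on the vesicle (a VAMP) pairs with SNAREs on the target membrane (a syntaxin and a member of the SNAP25 family), and the bundle they form pulls the membranes together. Synaptotagmins are the calcium sensors that couple a rise in calcium to this fusion, complexins hold and release the assembled bundle, NSF and the SNAP adaptors take it apart, and Rab3 and Rab27 recruit and tether vesicles. Merkel cells are touch receptor cells of the epidermis that carry dense-core vesicles and contact sensory nerve endings, and they are known to express proteins of neuronal exocytosis, while keratinocytes secrete through the widely expressed SNAREs.

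Transcripts were measured by total RNA sequencing in 9 libraries from the epidermis of newborn (postnatal day 0) mice of the strain named Sox2-GFP, a reporter in which GFP marks cells with Sox2 activity. The 3 Merkel libraries came from GFP-positive sorted cells. The 6 basal keratinocyte libraries came from sorted cells that were negative for GFP and positive for the surface proteins SCA1 and CD49F, with a first and a second basal library for each of 3 sample numbers. All groups share the reporter, the tissue and the age, and no treatment is named in the labels. The labels do not tell what separates a first from a second basal library, nor whether a number stands for an animal or for pooled animals. The p-values therefore measure the spread between these numbered samples, part of which may be technical. The table gives TPM, a transcript abundance per length whose total is alike in all libraries. Read depth is unknown, so low values carry no counting interval.

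The libraries carried their labelled markers, with RNA of other cells beside them. The 9 Merkel cell markers (highest Krt8) summed to 872 to 1161 TPM in Merkel libraries and to 2.37 to 5.96 TPM in basal libraries, and EGFP was at 178 to 247 TPM against 1.73 to 18.3 TPM. The 7 basal keratinocyte markers (highest Krt14) summed to 5978 to 6896 TPM in Merkel libraries and to 14778 to 19589 TPM in basal libraries. Transcripts of keratinocyte markers were thus present in the Merkel libraries. Whether they came from the Merkel cells or from other cells was not tested. The suprabasal list (highest Krt1) lay at 7013 to 11526 TPM in Merkel libraries and at 6850 to 11140 TPM in basal libraries. Macrophage, Langerhans and mast cell markers (highest Csf1r) summed to 163 to 424 TPM in first basal libraries, 16.6 to 31.2 TPM in second basal libraries and 17.5 to 39.7 TPM in Merkel libraries. Melanocyte markers (highest Dct) summed to 160 to 227 TPM in Merkel libraries, 16.7 to 36.8 TPM in first and 113 to 164 TPM in second basal libraries, and dermal fibroblast and papilla markers (highest Dcn) to 183 to 284, 36.1 to 103 and 102 to 253 TPM. Dcn carried most of that last sum and was not called, while the other 6 tested genes of its list were called higher in Merkel cells (Col3a1 at 29.9 against 0.965 TPM, Alx4 at 11.3 against 0.045 TPM), as were 6 of the 8 melanocyte markers. Schwann cell markers (highest Mbp) summed to 11.4 to 19.4 TPM in Merkel and 8.88 to 18.0 TPM in basal libraries, and endothelial markers (highest Pecam1) to at most 2.69 TPM in any library.

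Merkel cells carried a set of vesicle exocytosis transcripts that basal keratinocytes had at trace levels, with 3 exceptions. These came on top of widely expressed SNAREs that both cell types shared. Neuronal forms such as Snap25 and Syt1 were among them, while the neuronal forms Vamp1, Rab3a and Napb were not called. Of the 44 genes, 16 were called higher in Merkel cells and 0 lower. A call needed an adjusted p under 0.05 (limma, Benjamini-Hochberg over all tested genes) and a log2 fold change of at least 1 in size on the log2(TPM + 1) scale, with the first and second basal library of a number averaged. Of all 13822 tested genes, 6.79% were called higher and 5.27% lower. Testing needed 1 TPM in at least 3 of the 6 values, and 35 of the 44 genes passed. With no filter on low values, the same 16 genes were called among all 44, where 3.39% of 28451 genes were called higher and 2.46% lower. The median log2 fold change of the 44 genes was then 0.36, beside -0.04 for all genes. In 13 of the 16 called genes every basal library was under 1 TPM, so these passed the filter only through their Merkel values, and a gene that passes this way is already near the fold limit for a call. The other 3, Stx1a, Vamp2 and Cplx2, averaged at least 1 TPM in both cell types. Fibroblast, papilla and melanocyte markers were higher in Merkel libraries too, as given above, and the part of such cells in the levels of the 16 genes was not tested. In bulk samples, fewer cells of a type and less RNA per cell cannot be told apart.

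The summed level of the 16 called genes was 304, 219 and 299.6 TPM in Merkel replicates 1, 2 and 3, and 13.1 to 20.0 TPM in the 6 basal libraries. The 19 genes that were tested and not called summed to 347 to 391.6 TPM in Merkel libraries and to 367 to 448 TPM in basal libraries. In the basal libraries these shared genes held nearly all transcripts of the set. In each Merkel library the called genes summed to less than the shared ones, at 304 against 365, 219 against 347 and 299.6 against 391.6 TPM. Over the tested genes of the set, all 3 Merkel libraries lay above all 6 basal libraries for 20 genes. They lay below for 7 and overlapped for 8, where 11.7% of all tested genes lay above and 26.2% below. The count above is partly set by the filter. The 13 called genes under 1 TPM in every basal library, and Syt11, could be tested only with all Merkel values above the basal ones. Among all 44 genes without the filter, 22 lay above, 7 below and 15 overlapped, and the share over all genes was not counted. The plot of levels by library shows this division by family.

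**Figure D1:**
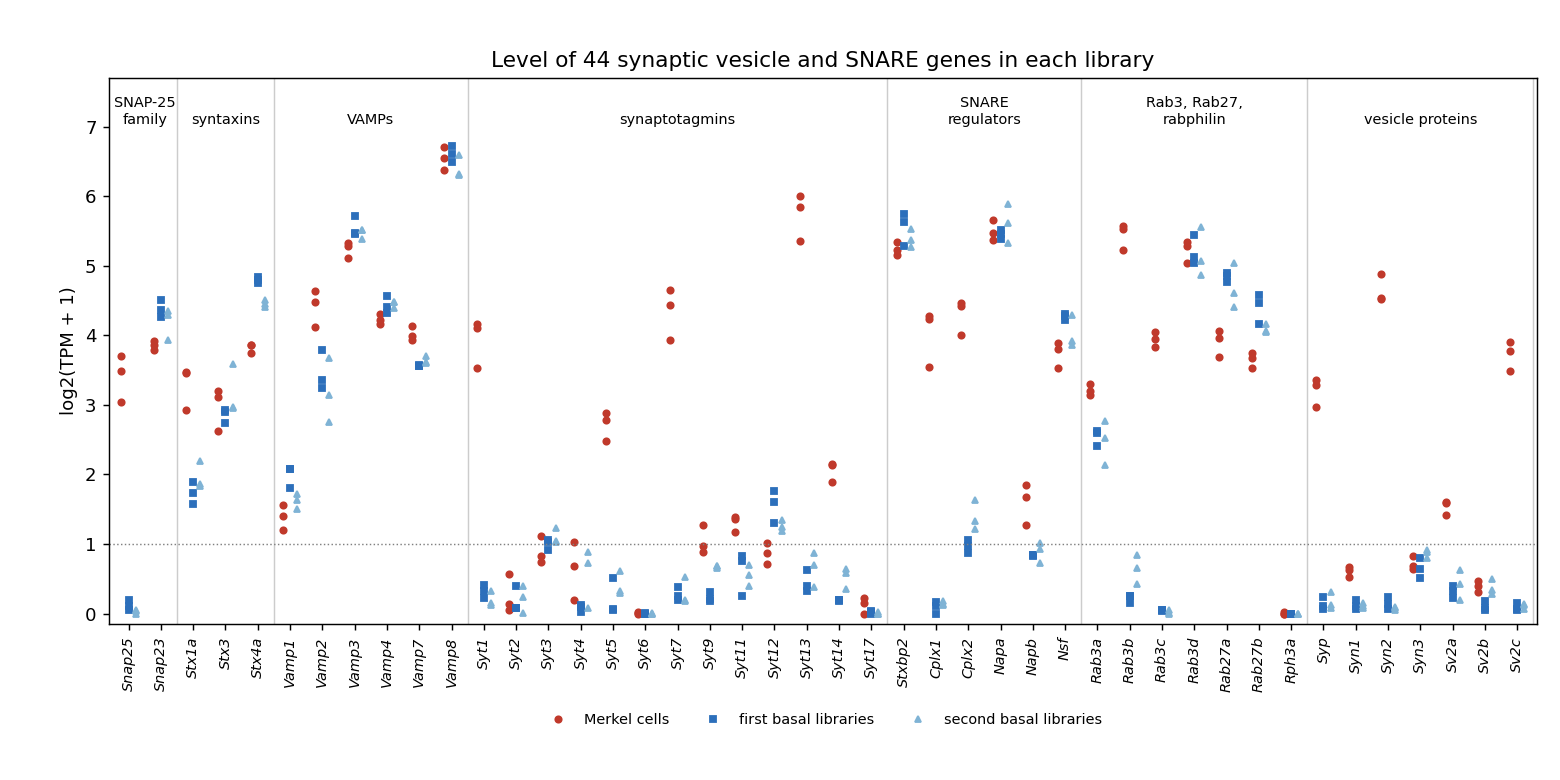
Level of the 44 genes as log2(TPM + 1) in every library, grouped by role, with Merkel cells in red circles, first basal libraries in dark blue squares and second basal libraries in light blue triangles; the dotted line marks 1 TPM. The red points of Snap25, Syt1, Syt7, Syt13, Rab3b, Rab3c, Syn2 and Sv2c lie well above basal points close to 0, while those of Vamp8, Napa and Rab3d lie among the basal points.

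The SNAP25 family supplies the target-membrane SNARE that contributes a pair of helices to the fusion bundle, and its 2 members in the set diverged. Snap29 and Snap47, outside the set, had means of 9.81 and 17.2 TPM in Merkel and 8.98 and 14.4 TPM in basal cells, without a call. Snap25, the neuronal form (chr2:136713453-136782428, plus strand, GRCm38), was at 10.25, 7.20 and 12.01 TPM in Merkel replicates 1 to 3. In the 6 basal libraries its lowest, median and highest values were 0.00, 0.040 and 0.14 TPM. The Merkel values lay far above the basal ones, with a log2 fold change of 3.33 ± 0.18 (SE, limma, adjusted p = 1.85e-06). Snap23, the widely expressed form (chr2:120567671-120601255, plus strand), was at 12.78, 14.11 and 13.52 TPM in Merkel libraries, 21.66, 19.51 and 18.25 TPM in first and 14.32, 19.39 and 18.57 TPM in second basal libraries. All Merkel values of Snap23 were below the basal ones, the highest Merkel and the lowest basal value being close. Its log2 fold change was -0.43 ± 0.11 (adjusted p = 0.0138), short of a call. Snap25 and Snap23 together summed to 23.3 ± 2.12 TPM in Merkel cells and 18.7 ± 0.726 TPM in basal cells (SD, n = 3). Snap25 held 41.8% ± 7.04 of that sum in Merkel cells and 0.298% ± 0.181 in basal cells (SD, n = 3, exact permutation p = 0.10).

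Among the 3 syntaxins of the set, only Stx1a was called. Stx1a, the neuronal plasma membrane syntaxin (chr5:135023482-135051100, plus strand), was at 10.06, 6.58 and 9.97 TPM in Merkel libraries, 2.32, 2.72 and 1.97 TPM in first and 2.64, 3.57 and 2.56 TPM in second basal libraries. The groups did not overlap, and basal cells had a clear level of their own (log2 fold change 1.43 ± 0.18, adjusted p = 0.000343). Stx4a, a plasma membrane syntaxin of many cell types, went the other way without reaching the limit for a call. It was at 13.54, 12.41 and 13.51 TPM in Merkel libraries, 26.84, 27.57 and 26.03 TPM in first and 20.20, 21.83 and 20.92 TPM in second basal libraries, which gave a log2 fold change of -0.81 ± 0.11 (adjusted p = 0.000518). Each basal library was above each Merkel library, and the second basal libraries lay between. Stx3, which serves apical membranes of epithelia, lay at 5.18 to 8.20 TPM in Merkel and 5.66 to 11.08 TPM in basal libraries, with overlap. Of the summed level of these 3 syntaxins, Stx1a held 30.3% ± 2.67 in Merkel cells and 7.76% ± 0.858 in basal cells. Stx4a held 45.8% ± 4.85 and 70.9% ± 2.35 (SD, n = 3, exact permutation p = 0.10 for each gene). Syntaxins outside the set were left out of this sum.

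The VAMPs are the SNAREs of the vesicle, and Vamp2 was the called gene among 6. Vamp2, the main VAMP of synaptic vesicles (chr11:69088490-69092384, plus strand), was at 24.01, 16.32 and 21.24 TPM in Merkel libraries, 12.83, 8.49 and 9.28 TPM in first and 11.73, 5.74 and 7.80 TPM in second basal libraries. All Merkel values were above all basal ones, with a log2 fold change of 1.08 ± 0.21 (limma, adjusted p = 0.00319). This sits just past the limit for a call. It fell to 0.95 against first basal libraries only (15 genes called higher and 0 lower, beside 7.43% and 7.24% of all tested genes), to 0.97 without Merkel replicate 1 and to 0.92 without basal replicate 2, and the call was then lost. Vamp8, a VAMP of regulated secretion and late endosomes in epithelial and blood cells, was the most abundant of the 44 genes. It was at 93.15, 82.08 and 103.92 TPM in Merkel libraries, 104.77, 96.92 and 89.38 TPM in first and 78.10, 95.81 and 79.10 TPM in second basal libraries. The groups overlapped throughout, and the log2 fold change was 0.04 ± 0.13.

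Vamp3, the VAMP of recycling endosomes, was at 39.03, 33.67 and 37.93 TPM in Merkel libraries, 51.79, 42.96 and 43.26 TPM in first and 44.51, 44.49 and 40.67 TPM in second basal libraries. Vamp4, of the trans-Golgi network, was at 16.99, 17.73 and 18.73 TPM in Merkel libraries, 22.61, 19.08 and 20.17 TPM in first and 19.95, 21.20 and 21.30 TPM in second basal libraries. Merkel values were the lower ones for both genes, with log2 fold changes of -0.27 ± 0.12 for Vamp3 and -0.21 ± 0.11 for Vamp4 that missed the threshold (adjusted p = 0.0968 and 0.163, limma). Vamp3 overlaps Camta1 on the same strand, which was at 19.2 TPM in Merkel and 20.3 TPM in basal cells, so its reads may be shared. Vamp7, a VAMP of late endosomes and lysosomes whose row matched a gene on an unplaced scaffold (GL456233.1), lay at 14.33 to 16.64 TPM in Merkel and 10.80 to 12.02 TPM in basal libraries, and Vamp1, a neuronal VAMP, at 1.29 to 1.94 and 1.83 to 3.24 TPM. Vamp1 overlaps Tapbpl on the opposite strand. Their log2 fold changes were 0.42 ± 0.12 (adjusted p = 0.0176) for Vamp7 and -0.42 ± 0.14 (adjusted p = 0.0407) for Vamp1. Of the VAMP sum, Vamp2 held 11.04% ± 1.49 in Merkel and 5.18% ± 1.32 in basal cells (exact permutation p = 0.10), and Vamp8 held 50.2% ± 1.60 and 50.7% ± 2.27 (exact permutation p = 0.70).

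The synaptotagmins as a family were far more abundant in Merkel cells, and other members led. The 13 genes together summed to 102 ± 22.3 TPM in Merkel cells and 5.57 ± 0.349 TPM in basal cells (SD, n = 3, exact permutation p = 0.10), and 5 of them were called higher. Syt13, a synaptotagmin whose C2 domains do not bind calcium (chr2:92915098-92956058, plus strand), was at 63.31, 39.95 and 56.69 TPM in Merkel libraries. Its lowest, median and highest basal values were 0.25, 0.43 and 0.82 TPM. All 3 Merkel libraries stood far above the basal ones, and the log2 fold change of 5.19 ± 0.19 (limma, adjusted p = 2.29e-07) was the highest of the 44 genes on the log2(TPM + 1) scale. By the ratio of mean TPM, Rab3c with 540-fold stood above Syt13 with 112-fold. Syt7, a high-affinity calcium sensor of slow and asynchronous release, was at 24.10, 14.35 and 20.59 TPM in Merkel libraries and at 0.13, 0.17 and 0.44 TPM as lowest, median and highest in basal libraries. Syt1, the fast calcium sensor of synaptic and dense-core vesicles, was at 16.99, 10.57 and 16.21 TPM against 0.09, 0.21 and 0.33 TPM. The groups were well apart for both, with log2 fold changes of 4.05 ± 0.19 (adjusted p = 9.7e-07) for Syt7 and 3.68 ± 0.18 (adjusted p = 1.31e-06) for Syt1.

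Syt5, a calcium-binding synaptotagmin, was at 5.90, 4.61 and 6.39 TPM in Merkel libraries and at 0.04, 0.24 and 0.53 TPM as lowest, median and highest in basal libraries. Syt14, which does not bind calcium, was at 3.42, 2.72 and 3.41 TPM against 0.13, 0.21 and 0.56 TPM. These too did not overlap, with log2 fold changes of 2.41 ± 0.15 (limma, adjusted p = 4.56e-06) for Syt5 and 1.70 ± 0.13 (adjusted p = 1.91e-05) for Syt14. Syt11 was at 1.25 to 1.62 TPM in Merkel libraries and 0.19 to 0.77 TPM in basal libraries, a log2 fold change of 0.73 ± 0.14 (adjusted p = 0.00346) that stayed short of a call. With a pseudocount of 0.1 it was 1.46, and with small RNAs and mitochondrial genes removed 1.03, and Syt11 was then called. Syt12, which also lacks calcium binding, had the highest basal level among the synaptotagmins of the set, at 1.27 to 2.40 TPM. Its Merkel values were 0.64 to 1.03 TPM (log2 fold change -0.54 ± 0.14, limma, adjusted p = 0.0136). Syt8, a synaptotagmin outside the set, had a mean of 0.627 TPM in Merkel and 3.52 TPM in basal cells. Syt3 lay at 0.68 to 1.17 and 0.89 to 1.35 TPM. The remaining 5 synaptotagmins of the set were not tested. Of these, Syt9, a fast calcium sensor, was at 0.85 to 1.41 TPM in Merkel and 0.13 to 0.61 TPM in basal libraries without overlap. Syt2, Syt4, Syt6 and Syt17 reached at most 1.04 TPM, for Syt4 in Merkel replicate 1.

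The order of levels among the synaptotagmins of the set differed between the cell types. In Merkel cells the means fell from Syt13 (53.3 ± 12.04 TPM) to Syt7 (19.7 ± 4.94), Syt1 (14.6 ± 3.503) and Syt5 (5.63 ± 0.919). The spreads of Syt7 and Syt1 between libraries overlap, though Syt7 was above Syt1 within each Merkel library. In basal cells the means fell from Syt12 (1.68 ± 0.281 TPM) to Syt3 (1.08 ± 0.115) and Syt11 (0.510 ± 0.185), all SD with n = 3. Syt13 held 52.4% ± 0.376 of the family sum in Merkel cells and 8.66% ± 3.42 in basal cells. Syt12 held 0.817% ± 0.0535 in Merkel cells and 30.1% ± 3.39 in basal cells (exact permutation p = 0.10 for both). The Merkel shares of Syt13 were close to each other although its level in replicate 2 was the lowest.

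**Figure D2:**
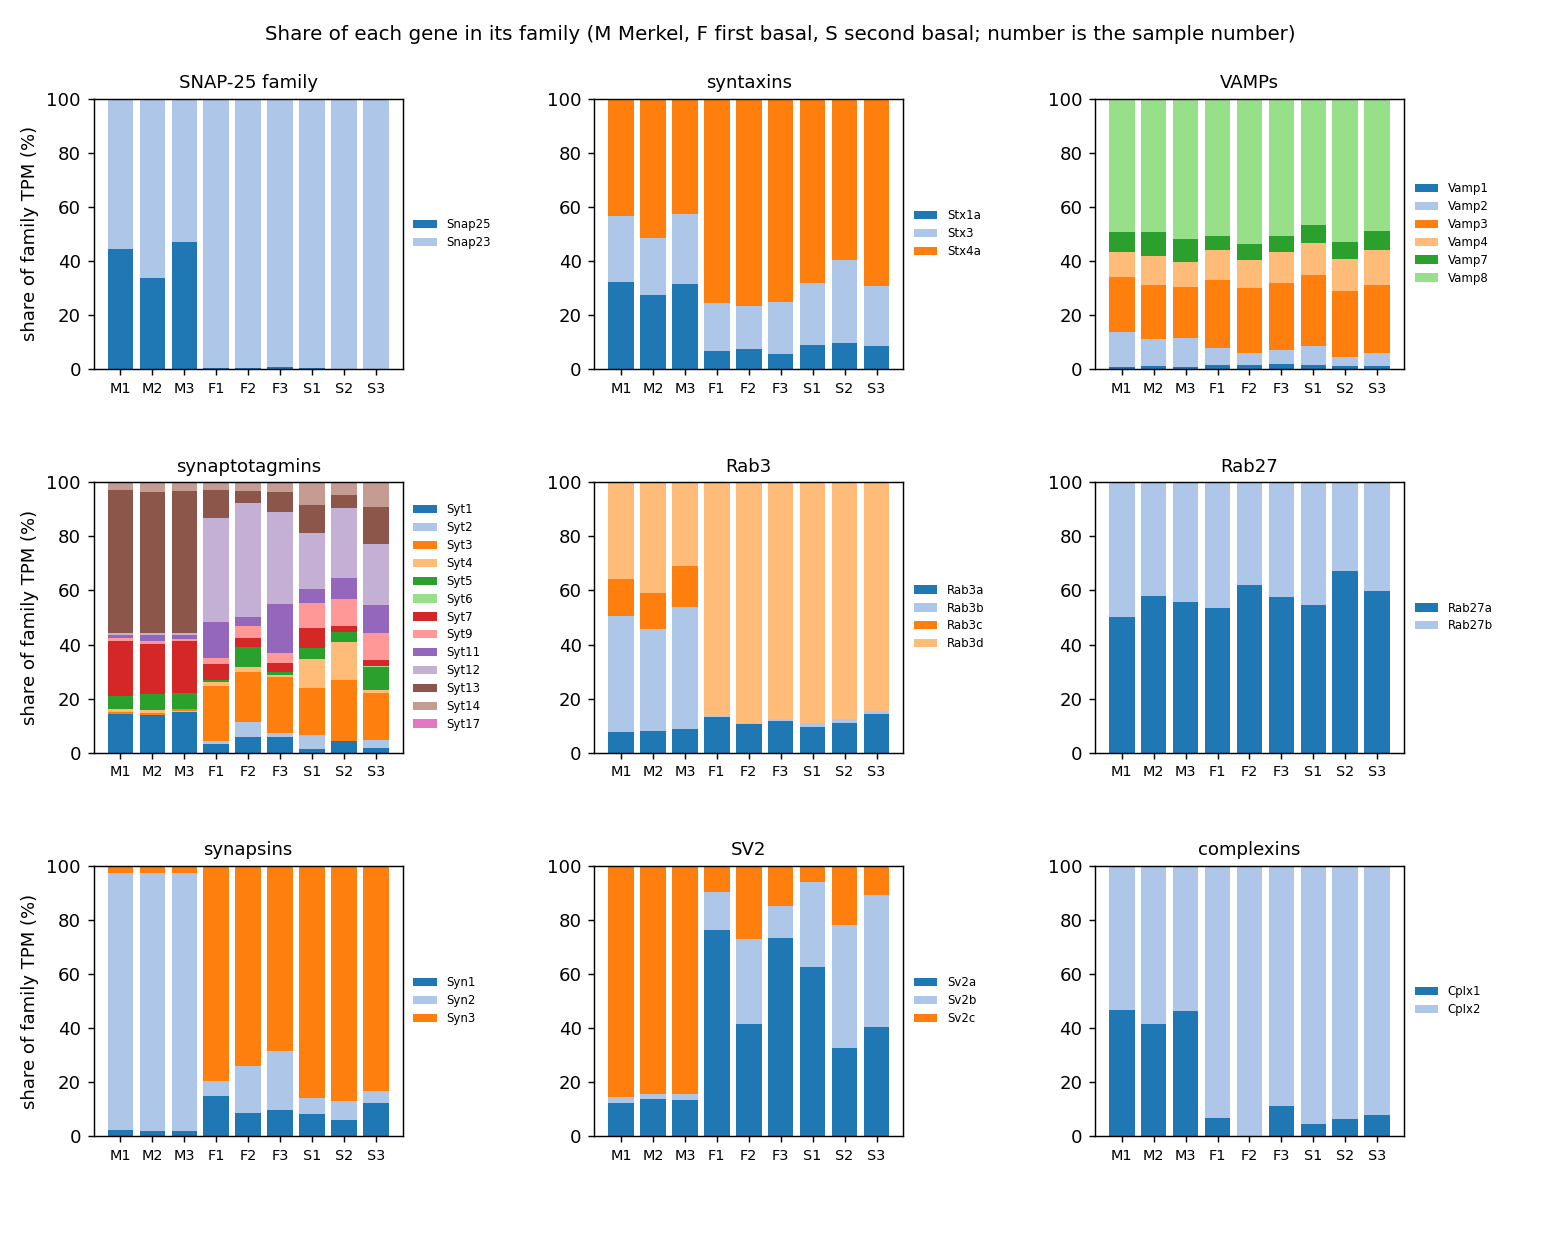
Share of each gene in the summed TPM of those genes of its family that are in the set (vertical axis, percent). Bars are Merkel (M), first basal (F) and second basal (S) libraries, with the sample number. Snap25, Stx1a, Syt13, Rab3b, Rab3c, Syn2, Sv2c and Cplx1 take a larger part of the bar in every Merkel library than in any basal library, while Vamp8 and Rab27a keep a similar part in both cell types.

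The regulators of SNARE assembly divided in the same way, with both complexins called and no call for the disassembly factors or Stxbp2. Cplx1, a neuronal complexin, was at 18.35, 10.68 and 17.74 TPM in Merkel libraries and at 0.00, 0.095 and 0.13 TPM as lowest, median and highest in basal libraries (log2 fold change 3.90 ± 0.20, limma, adjusted p = 1.47e-06). Cplx2, its close paralog, was at 21.06, 15 and 20.44 TPM in Merkel libraries, 1.08, 0.83 and 0.97 TPM in first and 2.10, 1.33 and 1.52 TPM in second basal libraries (log2 fold change 3.11 ± 0.16, adjusted p = 1.74e-06). Neither gene overlapped between cell types, and Cplx2 is the complexin that basal cells had at a measurable level. The complexins together summed to 34.4 TPM in Merkel and 1.39 TPM in basal cells, and Cplx1 held 44.9% and 6.16% of the sum.

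Napa, the alpha-SNAP adaptor that brings NSF to the SNARE bundle, was at 43.57, 40.32 and 49.65 TPM in Merkel libraries, 40.71, 44.52 and 42.92 TPM in first and 39.03, 58.24 and 47.92 TPM in second basal libraries. Stxbp2, the Munc18 protein of epithelial and blood cells, was at 36.57, 34.77 and 39.53 TPM in Merkel libraries, 48.53, 38.07 and 52.60 TPM in first and 40.41, 37.73 and 45.14 TPM in second basal libraries. The groups overlapped for both, with log2 fold changes of -0.03 ± 0.13 for Napa (limma, adjusted p = 0.90) and -0.23 ± 0.13 for Stxbp2 (adjusted p = 0.186). Nsf, the ATPase of SNARE disassembly, lay at 10.57 to 13.89 TPM in Merkel and 13.51 to 18.75 TPM in basal libraries (log2 fold change -0.40 ± 0.14, adjusted p = 0.0444). Napb, the beta-SNAP of neurons, lay at 1.41 to 2.61 against 0.66 to 1.02 TPM without overlap (0.74 ± 0.17, adjusted p = 0.00700). Its log2 fold change was 1.20 with a pseudocount of 0.1, and Napb was then called.

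Of the 4 Rab3 genes, Rab3b and Rab3c were called higher in Merkel cells. Rab3b, a Rab3 of endocrine and epithelial cells (chr4:108879063-108943324, plus strand), was at 45.40, 36.41 and 46.80 TPM in Merkel libraries and at 0.11, 0.265 and 0.80 TPM as lowest, median and highest in basal libraries. Rab3c, a Rab3 of neuronal and secretory vesicles (chr13:110054187-110280996, minus strand), was at 14.37, 13.20 and 15.60 TPM against 0.00, 0.035 and 0.04 TPM. Merkel and basal values lay far apart for both, with log2 fold changes of 5.02 ± 0.14 (limma, adjusted p = 5.85e-08) for Rab3b and 3.90 ± 0.12 (adjusted p = 1.41e-07) for Rab3c. Rab3d, the Rab3 of exocrine and other non-neuronal secretory cells, was at 38.07, 39.51 and 31.96 TPM in Merkel libraries, 33.93, 42.54 and 32.06 TPM in first and 32.45, 46.25 and 28.09 TPM in second basal libraries, with overlap (0.04 ± 0.16). Rab3a, the main Rab3 of neurons, was at 7.83 to 8.90 TPM in Merkel and 3.39 to 5.79 TPM in basal libraries without overlap (0.71 ± 0.13, adjusted p = 0.00281), short of a call. Rab3a overlaps Mpv17l2 on the opposite strand. In Merkel cells Rab3b (42.9 ± 5.64 TPM) and Rab3d (36.5 ± 4.01 TPM) had the highest means and differed by about their spread, with Rab3d above Rab3b in Merkel replicate 2. In basal cells Rab3d alone (35.9 ± 7.53 TPM) held 87.3% of the sum.

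Rab27a and Rab27b, which tether secretory granules and melanosomes to their effectors, were lower in every Merkel library than in every basal library. Rab27a was at 11.87, 14.53 and 15.64 TPM in Merkel libraries, 26.34, 27.88 and 28.66 TPM in first and 20.22, 31.75 and 23.35 TPM in second basal libraries. Its log2 fold change was -0.86 ± 0.15 (limma, adjusted p = 0.00169), which is near the limit for a call but did not reach it. Rab27b lay at 10.52 to 12.46 TPM in Merkel and 15.58 to 23.02 TPM in basal libraries (-0.60 ± 0.13, adjusted p = 0.00523). The sum of both was 25.6 ± 2.27 TPM in Merkel and 44.5 ± 1.43 TPM in basal cells, while the share of Rab27a was 54.6% ± 4.02 and 59.1% ± 5.44 (SD, n = 3, exact permutation p = 0.40). Melanocytes, which use Rab27a, had a higher marker sum in Merkel libraries than in first basal libraries, as given above, and the part of such cells in the Rab27a level was not tested. Rph3a, the rabphilin effector of Rab3 and Rab27, was listed at 0 in 8 of the 9 libraries and at 0.02 TPM in Merkel replicate 1.

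The genes for proteins of the vesicle membrane and its surface all stayed under 1 TPM in every basal library, and 4 of the 7 were called higher in Merkel cells. Syp, synaptophysin, a membrane protein used as a marker of synaptic vesicles (chrX:7638471-7653256, plus strand), was at 8.76, 6.84 and 9.22 TPM in Merkel libraries and at 0.05, 0.085 and 0.24 TPM as lowest, median and highest in basal libraries (log2 fold change 3.05 ± 0.14, limma, adjusted p = 9.58e-07). Syn2, a synapsin that binds the vesicle surface (chr6:115134902-115282006, plus strand), was at 22.07, 22.25 and 28.57 TPM against 0.04, 0.065 and 0.18 TPM (4.54 ± 0.14, adjusted p = 1.35e-07). Both stood clear of the basal values in every Merkel library. The other synapsins stayed under 1 TPM: Syn1 lay at 0.44 to 0.59 TPM in Merkel and 0.05 to 0.14 TPM in basal libraries, and Syn3 at 0.56 to 0.78 and 0.43 to 0.88 TPM. Syn1 overlaps Araf, and Syn3 contains Timp3, both on the opposite strand. Syn2 held 95.4% ± 0.124 of the synapsin sum in Merkel cells and 9.77% ± 3.64 in basal cells, where Syn3 led with 80.4% ± 3.78 of a sum of 0.868 TPM.

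Among the SV2 glycoproteins, Sv2c (chr13:95954594-96132577, minus strand) was at 14.02, 10.27 and 12.69 TPM in Merkel libraries and at 0.04, 0.07 and 0.11 TPM as lowest, median and highest in basal libraries (log2 fold change 3.62 ± 0.14, limma, adjusted p = 3.81e-07). Sv2a, the SV2 form found most widely in the brain, was at 2.02, 1.66 and 2.03 TPM against 0.15, 0.285 and 0.54 TPM (1.17 ± 0.13, adjusted p = 0.00021). Neither overlapped between the cell types, and Sv2c was the main SV2 transcript of Merkel cells. Under quantile normalization the log2 fold change of Sv2a was 0.97 and its call was lost. Sv2b lay at 0.24 to 0.38 TPM in Merkel and 0.04 to 0.41 TPM in basal libraries, with overlap. Sv2c held 84.7% ± 0.579 of the SV2 sum in Merkel cells and 14.3% ± 8.82 in basal cells (SD, n = 3, exact permutation p = 0.10). Over the 10 families, 50 such shares and sums were compared. With 3 values a group no p below 0.10 is possible, 41 comparisons reached it, and the lowest Benjamini-Hochberg adjusted value was 0.122.

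**Figure D3:**
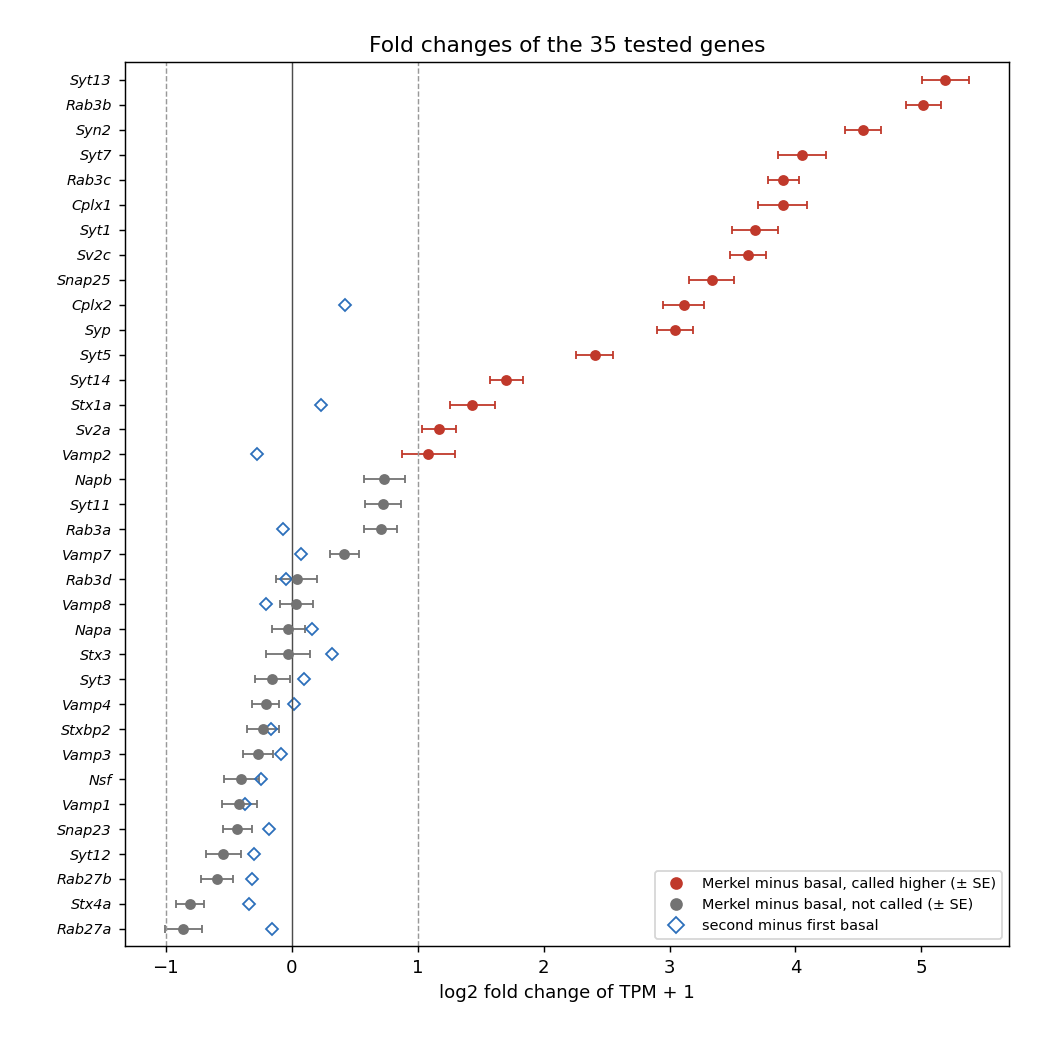
Log2 fold change of TPM + 1 for the 35 tested genes, Merkel minus basal cells with its SE (filled circles, red where called higher) and second minus first basal libraries where tested (open diamonds); dashed lines mark the limits for a call. The called genes run from 1.08 for Vamp2 to 5.19 for Syt13, and the negative changes end at -0.86 for Rab27a, inside the limit.

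Of the 19 tested genes without a call, 4 had an adjusted p under 0.05 and a positive change (Vamp7, Syt11, Napb and Rab3a) and 7 a negative one (Snap23, Stx4a, Vamp1, Syt12, Nsf, Rab27a and Rab27b). With the 16 called genes, 20 of the 35 tested genes were under that threshold with a positive change of any size and 7 with a negative one. Of all tested genes, 13.2% were under it with a positive and 28.5% with a negative change. The 13 called genes near 0 in basal libraries and Syt11 passed the filter only through their Merkel values. The negative count depends on scaling. Over all tested genes the median change was -0.15 (log2) with TPM as deposited and 0.01 under median-ratio scaling, which left 4 negative genes (Stx4a, Syt12, Rab27a and Rab27b) and put Vamp8 among 5 positive ones. Under quantile normalization Snap23 and Nsf dropped out, and with small RNAs and mitochondrial genes removed Vamp1 and Nsf did. Against second basal libraries only, 16 genes were called higher and 0 lower, beside 6.5% and 5.2% of all tested genes, and Stx4a, Rab27a and Rab27b stayed under the threshold. Basal keratinocyte markers were also lower in Merkel libraries, as given above, and their part in the negative changes was not tested.

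Promoter sequence was set beside the levels for Rab3c, Stx1a and Syt1, called genes with the E-box described next, for Sv2c, a called gene without it, and for Snap23, the widely expressed counterpart of Snap25. These 5 were picked with levels and matches in view. RefSeq windows (GRCm38.p6, from 250 bases before to 50 bases after an annotated start) matched 32 of the 44 genes, 11 of them called. The E-box CAGCTG, which reads the same on both strands and belongs to the CANNTG class bound by basic helix-loop-helix factors such as Atoh1, was searched in them, and a gene was counted if any of its windows held it. It was present in 7 of the 11 called genes (Stx1a, Syt1, Syt14, Cplx1, Cplx2, Rab3c and Sv2a) and in 5 of the 21 others. It occurs in 16.3% of all 32851 windows, in 17.7% of the 10074 tested genes with a window and in 24.02% of the 666 genes called higher. The motif was chosen with the results known, and a match is a description of letters only. The 250 bases before the start, which hold no annotated exon, are printed 5′ to 3′ on the gene's strand with CAGCTG in capitals.
Rab3c (chr13:110280207-110280456, minus strand): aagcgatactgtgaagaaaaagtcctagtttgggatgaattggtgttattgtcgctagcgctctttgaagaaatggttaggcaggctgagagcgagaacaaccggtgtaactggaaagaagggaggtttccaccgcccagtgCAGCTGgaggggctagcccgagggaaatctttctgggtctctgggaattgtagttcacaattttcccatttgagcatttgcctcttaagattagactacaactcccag
Stx1a (chr5:135023232-135023481, plus strand): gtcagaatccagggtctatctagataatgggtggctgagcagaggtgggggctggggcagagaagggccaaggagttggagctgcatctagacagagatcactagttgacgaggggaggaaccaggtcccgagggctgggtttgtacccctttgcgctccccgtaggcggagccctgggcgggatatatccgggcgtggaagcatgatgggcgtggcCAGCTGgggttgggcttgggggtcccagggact
Syt1, at an alternative start (chr10:109009112-109009361, minus strand): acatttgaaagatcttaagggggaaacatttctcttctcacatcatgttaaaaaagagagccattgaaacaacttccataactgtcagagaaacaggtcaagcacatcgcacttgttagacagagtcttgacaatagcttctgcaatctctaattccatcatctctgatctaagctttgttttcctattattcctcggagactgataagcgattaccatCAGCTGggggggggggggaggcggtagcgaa
Sv2c (chr13:96132578-96132827, minus strand): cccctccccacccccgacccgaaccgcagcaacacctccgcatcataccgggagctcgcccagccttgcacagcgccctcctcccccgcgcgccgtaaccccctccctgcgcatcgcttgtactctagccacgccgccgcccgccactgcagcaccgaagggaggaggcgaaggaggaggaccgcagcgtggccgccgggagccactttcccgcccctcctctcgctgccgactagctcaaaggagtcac
Snap23 (chr2:120567421-120567670, plus strand): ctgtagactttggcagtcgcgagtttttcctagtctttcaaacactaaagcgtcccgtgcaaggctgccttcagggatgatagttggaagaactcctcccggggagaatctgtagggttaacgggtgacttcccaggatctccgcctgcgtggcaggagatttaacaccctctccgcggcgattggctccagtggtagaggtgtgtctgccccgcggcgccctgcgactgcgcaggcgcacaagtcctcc

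The E-box begins 108 bases before the start in Rab3c, 33 in Stx1a and 31 at the alternative start of Syt1, and these letters are not in the printed stretches of Sv2c and Snap23. Nor are they in the 250 bases before the other RefSeq start of Syt1 (chr10:109010976-109011225, minus strand), which overlap an annotated exon and are not printed. The Rab3c stretch lies inside the gene body as GENCODE M21 draws it, outside its exons. The GC content of the printed stretches was 47.6% for Rab3c, 62% for Stx1a, 42.8% for Syt1, 70.8% for Sv2c and 58.4% for Snap23. The other E-box searched, CAGATG on either strand, was in the window of 1 called gene (Syn2) and 2 others, against 17.2% of all windows and 13.7% of tested genes. The GC box GGGCGG was in 10 of the 11 called genes and 13 of the 21 others, with 35.7% of all windows and 69.4% of tested genes. The core letters TGACG of the cyclic AMP response element were in 3 of the 11 and 9 of the 21, with 20.8% of all windows and 35.2% of tested genes, and TATAAA in 1 and 2, with 13.6% and 8.70%. The RE1 element, which the neuronal gene repressor REST binds, was in no window of the 32 genes, with 0.0639% of all windows and 0.0893% of tested genes. Among the 666 genes called higher, the shares were 18.0% for CAGATG, 61.6% for GGGCGG, 26.3% for TGACG, 12.5% for TATAAA and 0.751% for RE1. With RE1 this rare, its absence from 32 genes says little.

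Between the first and second basal libraries no gene of the set was called, and calls were also rare among all genes. Of the 20 that were tested, 0 were called higher and 0 lower with limma, where 0.675% and 3.67% of 13477 tested genes were. At such rates, 0 of 20 does not set these genes apart from the rest. An unadjusted p under 0.05 was found for 4 of them, and the share of all genes under that limit was not counted. In the limma fit these were Stx4a (log2 fold change, second minus first, -0.34 ± 0.08, adjusted p = 0.0547), Cplx2 (0.43 ± 0.16, adjusted p = 0.183), Vamp1 (-0.37 ± 0.14, adjusted p = 0.192) and Rab27b (-0.31 ± 0.13, adjusted p = 0.212). Among all 44 genes, 7 had every second library above every first one (Stx3, Vamp7, Syt9, Syt14, Cplx2, Rab3b and Sv2b) and 3 had it below (Stx4a, Vamp1 and Rab27b), against 11.2% and 7.26% of 28451 genes. Rab3b was at 0.19, 0.11 and 0.19 TPM in first and 0.58, 0.80 and 0.34 TPM in second basal libraries, and Syt14 at 0.14, 0.14 and 0.13 against 0.50, 0.28 and 0.56 TPM. The second libraries also had the higher EGFP, at 13.4 to 18.3 TPM against 1.73 to 3.72 TPM. The Merkel cell markers summed to 3.96 to 5.96 TPM in second and 2.37 to 5.26 TPM in first basal libraries, with overlap. The part of carried-over GFP-positive cells in the low Rab3b and Syt14 values was not tested.

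Most called genes had their lowest Merkel value in replicate 2. This held for 15 of the 16, Syn2 being the exception, and for 75.6% of all 938 genes called higher. In that library small structural RNAs took 50.6% of all TPM, against 42% and 39.6% in Merkel replicates 1 and 3. After small RNAs and mitochondrial genes were removed and TPM rescaled, replicate 2 was still lowest for 14 of the 16 genes, and for 52.4% of all genes called higher. Without Merkel replicate 2, 16 genes were called.

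Sensory neurons express many of the same genes, and their markers were low in all libraries. The 13 sensory neuron markers summed to 3.78 to 6.83 TPM in Merkel libraries and to at most 0.62 TPM in basal libraries. Calca (2.07 to 4.09 TPM in Merkel libraries) and Gap43 (1.05 to 2.11 TPM) made up most of that sum. The neurofilament genes Nefl and Nefm and the neuronal filament gene Prph reached at most 0.15 TPM there, and Scn10a, Mrgprd and Prdm12 were listed at 0 in all 3. The plot of summed levels sets these marker lists beside the genes described here.

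**Figure D4:**
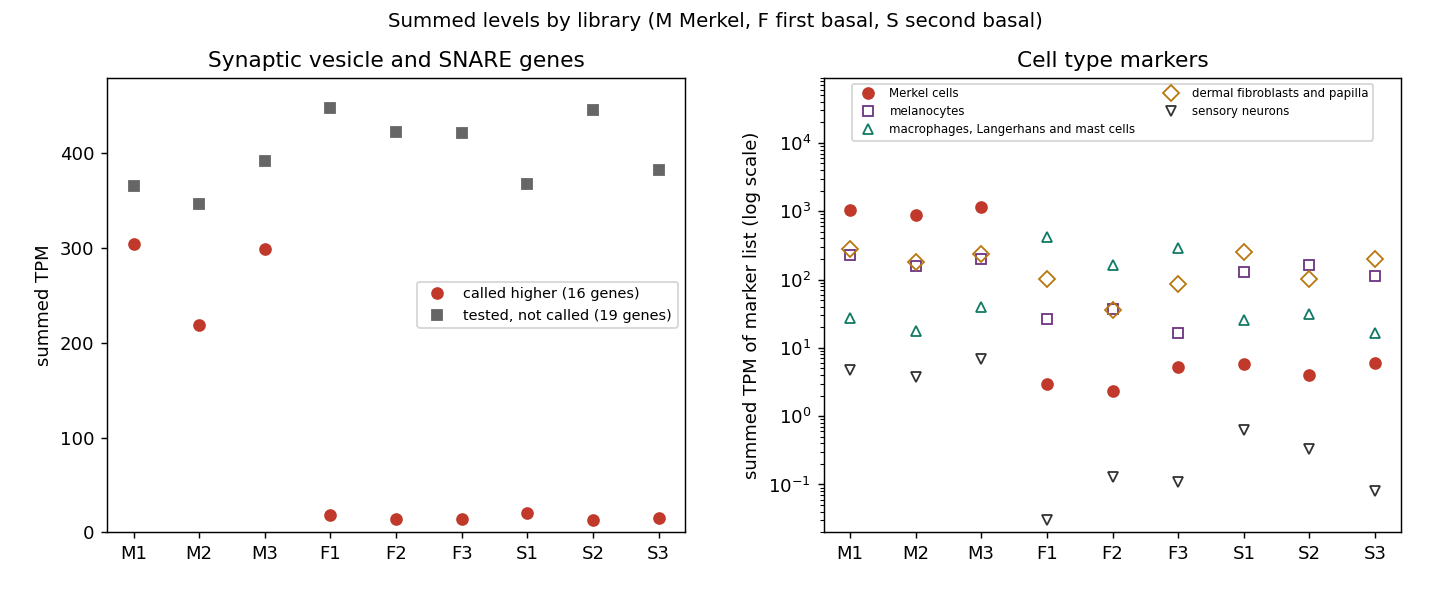
Summed TPM in each Merkel (M), first basal (F) and second basal (S) library: left, the 16 called genes (circles) and the 19 tested genes without a call (squares); right, marker lists of 5 cell types on a log scale. The called genes sum to 219 to 304 TPM in Merkel and 13.1 to 20.0 TPM in basal libraries, and sensory neuron markers stay under 10 TPM in every library.

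Other genes of vesicle exocytosis were taken from 7 lists of 133 genes, of which 132 had a row and 92 were tested. Merkel cells had 12 of these higher and 3 lower, beside the 6.79% and 5.27% of all tested genes given above. With no filter on low values 13 were higher and 3 lower, where 3.39% and 2.46% of all genes were. The 11 tested genes of the active zone and of vesicle priming had 5 calls, all higher. These were Rimbp2 (log2 fold change 2.78 ± 0.15), a scaffold linking vesicles to calcium channels, Unc13a (2.25 ± 0.13), the Munc13 priming factor, Erc2 (2.35 ± 0.14), a scaffold of the active zone, Rims2 (1.73 ± 0.13), a Rab3 effector, and Cadps (1.60 ± 0.14), which primes dense-core vesicles. Unc13a had a mean of 5.78 ± 0.317 TPM in Merkel and 0.433 ± 0.108 TPM in basal cells (limma, adjusted p = 2.61e-06). Rimbp2 had 6.29 ± 1.31 and 0.0483 ± 0.00577 TPM (adjusted p = 2.43e-06). In all 5 called genes every basal library was under 1 TPM, so they passed the filter only through their Merkel values. Of the 20 active zone and priming genes listed, 9 were not tested. Sncg and Sytl3, given below, also passed the filter only through their Merkel values.

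The SNARE regulators outside the set had 2 of 12 tested genes higher. Among them Sncg, gamma-synuclein, was at 38.0 ± 9.41 TPM in Merkel and 0.682 ± 0.0454 TPM in basal cells (4.52 ± 0.18, limma, adjusted p = 3.63e-07). Of the 23 other SNAREs tested, most of which serve the Golgi, endosomes and the endoplasmic reticulum, 0 were called in either direction. With 6.79% of all tested genes called higher and 5.27% lower, 0 of 23 does not set these SNAREs apart from the rest.

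The other synaptotagmin-like and C2 domain genes had 3 higher and 2 lower of 8 tested. Sytl2 (1.75 ± 0.13) and Sytl3 (1.45 ± 0.13), Rab27 effectors, and Doc2g (1.02 ± 0.15) were higher. Syt8 (-1.41 ± 0.19), a synaptotagmin of epithelial cells, and Myof (-1.07 ± 0.20), a ferlin of membrane repair, were lower. Syngr1, a synaptic vesicle membrane protein, was higher (1.30 ± 0.19) among 9 tested genes, and Dnajc6, which uncoats clathrin vesicles, was higher (1.81 ± 0.16) among 19 genes of vesicle endocytosis. Counts of 1 among 9 and 1 among 19 are near the 6.79% of all tested genes called higher. Rab3il1, an exchange factor for Rab proteins, was lower (-1.18 ± 0.17) among 10 Rab regulators. It was at 13.96 TPM in first and 1.35 TPM in second basal libraries and 1.57 TPM in Merkel libraries, so its decrease rests on the first basal libraries, in which the macrophage marker sum was also high. The part of those cells in it was not tested. Against second basal libraries only, 2 genes of these lists were lower.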

How the data were processed

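The authors trimmed reads with Trimmomatic, aligned them with STAR to mm10 and quantified genes with RSEM, per the submitters' processing notes. Per the labels' protocols, a stranded total RNA kit and paired reads of 125 bases were used. What annotation and strand setting were used is not given in the sources used here. Deposited values are TPM per gene, which keep no read depth. Precision rests on the 3 samples of a group and, in limma, also on a variance trend drawn from all tested genes.

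Symbols and gene coordinates came from GENCODE M21 (GRCm38, the same build as mm10), matched on Ensembl identifiers without version. Of the 44 genes, 23 overlap another gene, 6 of them a gene at a mean of 1 TPM or more and 0 of those 6 called. Promoter windows came from RefSeq (GRCm38.p6).

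Values were transformed to log2(TPM + 1), and the first and second basal library of each number were then averaged. A gene was tested at 1 TPM or more in at least 3 of 6 values, with limma 3.58.1 in R 4.3.3 (variance trend, two-sided), fitted over the whole table with Benjamini-Hochberg adjustment. Genes at an adjusted p under 0.05 whose log2 fold change was at least 1 in size were called. This scale understates changes of genes near 0. Second and first basal libraries were compared with the same fit. Levels are mean TPM ± SD, a basal value being the mean of the 2 libraries of a number. A family sum covers only the genes of the set, and sums and shares were compared with two-sided exact permutation tests. Other software was Python 3.11.15, pandas 2.3.3, numpy 2.4.6 and matplotlib 3.10.9. The fits were tested on simulated data, with changes only in genes well above 0 in basal libraries. That test does not cover the called genes near 0 there.

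Deviations of libraries with the same sample number from their group means correlated across genes, with r of 0.39, 0.36 and 0.20 between Merkel and mean basal values and 0.47, 0.53 and 0.38 between first and second basal libraries. The numbers were therefore taken to pair the samples, and a fit with the number as a block was an alternative. Other alternatives changed the pseudocount, the low-value filter, the scaling, small RNA content, the variance trend, the basal libraries used and the samples included.

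The 44 genes, the other lists and the motifs were chosen with earlier results of these data known. Values in every library are given for genes called in either comparison and for the 10 with the highest mean TPM, the 6 basal values of genes near 0 being given as lowest, median and highest. Of the other exocytosis lists, called genes are named, at most 4 a list by smallest adjusted p, the fifth active zone gene being added after its value was seen, and 1 called gene is not reported here. Of each marker list the gene with the highest mean is named, and other markers, EGFP and genes overlapping a member were named after their values were seen.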

Additional observations from a re-analysis of the deposited data

How the results depend on the processing

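The count of genes called higher in Merkel cells was 16. It was 18 with a pseudocount of 0.1, 17 with small RNAs and mitochondrial genes removed, 15 with quantile normalization or with first basal libraries only, 13 with a filter at 5 TPM, and 15 to 16 when 1 replicate was left out. It was 0 lower in each alternative run, and the counts between second and first basal libraries were also 0 in each. With the sample number as a replicate block, 16 were called higher and 0 lower, and the pairing changed no call. Of the 16 called genes, 14 kept their call under every alternative that tested them, the exceptions being Vamp2 and Sv2a, and 0 changed sign. Of the 19 genes without a call, Syt11 and Napb were called under some alternative and 4 changed sign. Of the other exocytosis genes, 12 were higher and 3 lower. The higher count was 8 with the filter at 5 TPM, and 11 to 14 when a replicate was left out. The lower count was 1 with that filter, 5 against first basal libraries only and 2 to 3 when a replicate was left out. The cause of these differences was not tested, apart from the fewer genes tested at 5 TPM. The share of Syn2 in the synapsin sum was 85.6 points higher in Merkel cells, 80.5 against first and 89.5 against second basal libraries only. Read depth is unknown, so values under 1 TPM are the least certain.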
